A study of Arabidopsis thaliana with 12 samples.

Results

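Cytochrome P450 genes of Arabidopsis thaliana were followed across a study of brief light given to plants in darkness. Members were the probe sets annotated to a single gene whose symbol is CYP followed by a family number, a subfamily letter and a gene number, and cyclophilins, which also carry CYP symbols, were left out. The rule found 22 of 22810 probe sets, each for a different gene, out of 13350 genes with a probe set of their own. Of these, 18 belong to the CYP71B subfamily, and the other 4 are CYP78A9, CYP84A4, CYP79A2 and CYP51G2. The gene set of the TAIR10.1 assembly holds 225 symbols of this form, so the 22 are a small and uneven sample of the family, and P450 genes of hormone, sterol, carotenoid, cutin and lignin pathways are not analysed here. One probe set for a gene named as a pseudogene (CYP71B30P) and 2 probe sets that name several genes were outside the rule. The TAIR10.1 annotation classes 20 of the 22 genes as protein-coding and CYP71B27 and CYP51G2 as transcribed pseudogenes.

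The arrays came from aerial rosettes of wild-type seedlings of the Columbia ecotype, 15 days old, raised under daily cycles (12 h white light, 12 h dark) and then moved to constant darkness. The 4 groups of 3 arrays each were seedlings exposed for 1 h to white light at mid-night (night pulse), seedlings of that time left dark (night control), seedlings exposed likewise at the midpoint of the subjective day (day pulse), and seedlings of that time left dark (day control). All 4 groups share the wild-type genotype and the transfer to darkness. The labels do not say how long each group had been dark, so time of day and length of darkness cannot be told apart between the night and day groups. The labels give CT 6 for the night arrays and CT 18 for the subjective-day arrays, which is the reverse of the usual count from subjective dawn, and groups follow the sample titles.

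Plant P450 enzymes are haem-containing monooxygenases, most of them anchored in the endoplasmic reticulum, that take electrons from NADPH through a reductase and insert an oxygen atom into a small molecule. They hydroxylate, cleave and rearrange precursors of hormones, pigments, wall polymers and defence compounds, and the substrate differs between closely related genes. CYP71B is one of the large Arabidopsis subfamilies. It includes PAD3, the enzyme of the last steps of camalexin synthesis, while most of its members have no settled substrate. Many CYP71B genes lie next to each other in tandem arrays.

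Signals are Affymetrix probe-set intensities after quantile normalization, in arbitrary units, and group values are mean ± SD over 3 arrays. Changes are limma estimates on the log2(signal + 2) scale ± SE. Values of dim genes depend on the added 2, and for CYP78A9 at night the change was 2.16, against 1.01 with 16 added instead. A call means a Benjamini-Hochberg adjusted p under 0.05 over all 13647 probe sets tested. The arrays' median intensities lay between 23.5 and 63.5 as deposited. They were 41.2, 63.5 and 48.7 in night pulse and 47.7, 48.8 and 50.5 in night control arrays. In the subjective day they were 23.5, 44.3 and 47.2 in pulse and 33.7, 25 and 28.1 in control arrays. All day controls were thus dimmer than all night controls as deposited, a difference between groups that quantile normalization removes. RNA quality can be read from the 3' to 5' ratio of the GAPDH control, which reached 9.29 for day pulse replicate 1 and 8.75 for day control replicate 2, while the remaining 10 arrays had 2.16 to 5.16. On the first principal component the 3 day controls lay at 91.5 to 108, and the other 9 arrays between -73.2 and -6.46. Of 6 leaf markers RCA (Rubisco activase) had a named probe set, with signals of 7177 to 8675 in night pulse, 7251 to 8413 in night control, 6061 to 6881 in day pulse and 2626 to 4568 in day control arrays. Of 8 root markers EXPA7 had a named probe set and stayed at or under 16.2 on all arrays. None of 3 flower markers had one. In whole rosettes, fewer cells of a type and less RNA per cell cannot be told apart.

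Of the 22 members, 10 passed the filter on low signal, CYP78A9 and 9 CYP71B genes, and 12 did not. The filter kept probe sets above the 40th percentile of mean log2 signal, equal to a signal of 21.75. CYP78A9 lay just inside it at percentile 40.4, and CYP71B22 just outside at 37.5. Among the 10 tested genes, 8 had every group mean above 21.75. CYP71B23 had 1 group mean below it, in the night pulse, and CYP78A9 had 1, in the night control, so these genes passed through their brighter groups.

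After the night pulse limma called 2 of the 10 tested members higher, CYP71B26 and CYP78A9, and 0 lower, where 12.9% of all tested probe sets were called, 6.07% higher and 6.82% lower. Of these calls 47.1% were higher, and 63.83% in data without normalization between arrays, where the median over all probe sets was 0.09. There 1 of 9 tested members was called higher, and CYP78A9 fell under the filter. A further 3 members had an unadjusted p under 0.05. Without both arrays of high GAPDH ratio 4 members were higher. Both are day arrays, so the night values stayed the same there, and only the shared estimate of spread and the adjusted p changed. The members' median change at night was 0.27, against -0.01 over all tested probe sets. Pulsed arrays lay wholly above the controls for 3 members and wholly below for 2, which 17.5% and 19.6% of all tested probe sets also did (37.1% in all).

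After the day pulse 4 of the 10 members were called higher, CYP71B26, CYP71B35, CYP71B28 and CYP71B6, and 2 lower, CYP71B23 and CYP71B24, where 42.7% of all tested probe sets were called, 21.0% higher and 21.8% lower. Of these calls 49.1% were higher, and 33.9% when arrays were instead centred on their medians, where the median over all probe sets was -0.25. There 9 members were tested, with 3 called higher and 2 lower. Without both arrays of high ratio 3 were higher and 2 lower. The median change was 0.59, against -0.04 over all tested probe sets. Pulsed arrays lay wholly above the controls for 4 members and wholly below for 2, against 22.7% and 25.3% of all tested probe sets (48.0% in all). RCA was also higher after the day pulse, by 0.78 ± 0.19 (adjusted p = 0.00485), and its part in these changes was not tested.

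**Figure D1:**
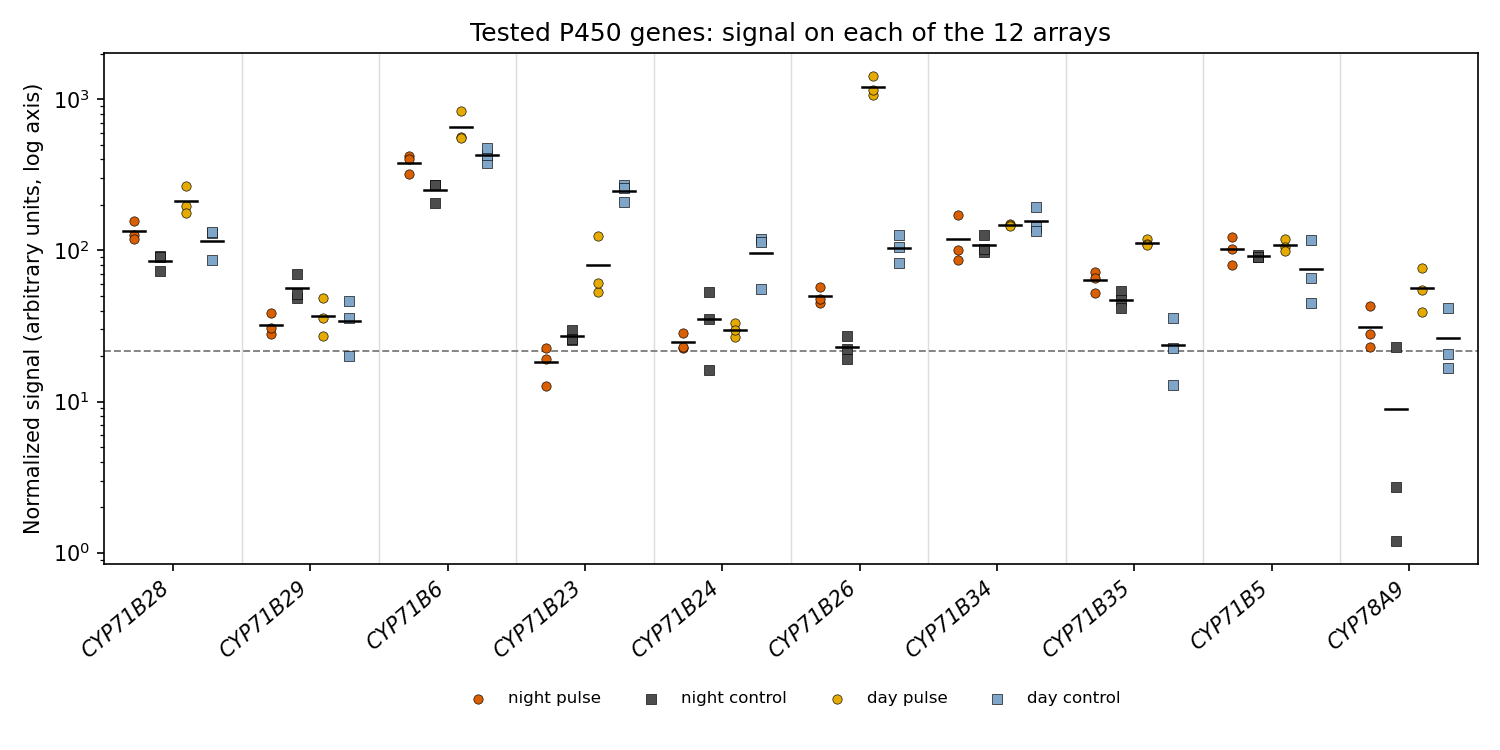
Normalized signal (log axis, arbitrary units) of the 10 tested P450 genes on each of the 12 arrays. Circles are pulsed and squares control arrays, short bars are group means, and the dashed line is the filter signal of 21.75. CYP71B26 lies between 1067 and 1421 on the day pulse arrays and between 82.8 and 126 on the day control arrays.

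CYP71B26 (AT3G26290) had the largest change after the day pulse among the 10 tested members. It is a CYP71B gene with no substrate assigned here. Its signals were 1421, 1067 and 1154 on the day pulse arrays, against 82.8, 126 and 105 on the day control arrays. The lowest pulsed array was thus far above the highest control array. At night its signals were 45.0, 47.4 and 57.0 after the pulse, against 27.1, 19.2 and 22.3 in the controls, again with no overlap. The gene rose at both times, by 3.52 ± 0.21 in the subjective day (11.5-fold, adjusted p = 4.03e-08) and by 1.07 ± 0.21 at night (2.09-fold, adjusted p = 0.00367). Its night controls lay near the filter signal of 21.75. With 16 added instead of 2 its night change was 0.76 (adjusted p = 0.0107), and with dim signals raised to 21.75 it was 1.01 (adjusted p = 0.00386). As deposited, before normalization, its intensities were 799.6, 1023.4 and 1171.2 after the day pulse and 75.3, 88.5 and 85.2 in the day controls. The order of the 4 group means was 1214 ± 184 in day pulse, 104 ± 21.4 in day control, 49.8 ± 6.37 in night pulse and 22.9 ± 4.03 in night control, and no array of one group reached into the next.

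CYP71B35 (AT3G26310), a second CYP71B gene of the same cluster, rose after the day pulse. It had 118, 110 and 108 on the day pulse arrays, against 35.6, 12.9 and 22.5 on the day control arrays. After normalization the pulsed arrays were close together and all above the controls, which spread on both sides of 21.75. As deposited the pulsed arrays had 62.4, 120 and 124.6, against 29.3, 9.6 and 15.8 in the controls. The change was 2.25 ± 0.29 (4.77-fold, adjusted p = 3.9e-05), and 1.87 ± 0.27 without the pair of arrays with a high GAPDH ratio (adjusted p = 0.000157). At night its signals were 71.8, 52.5 and 66.0 after the pulse, against 53.5, 46.8 and 41.4 in the controls. These ranges overlapped, and the value of 0.41 ± 0.29 was not called (adjusted p = 0.456).

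CYP71B23 (AT3G26210) fell after the day pulse. Its signals were 53.0, 125 and 61.1 on the day pulse arrays, against 211, 272 and 258 on the day control arrays, without overlap. It fell by 1.70 ± 0.30 on the log2 scale, 3.25-fold (adjusted p = 0.000549). At night it was dim, at 12.7, 22.7 and 19.0 after the pulse, against 29.5, 25.4 and 26.1 in the controls. The pulsed arrays lay below the controls there, at least 1.24-fold by the means, but the fitted value of -0.56 ± 0.30 was not called (adjusted p = 0.297).

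CYP71B24 (AT3G26230) also fell after the day pulse. It had 32.9, 26.9 and 29.7 on the day pulse arrays, against 118, 114 and 55.1 on the day control arrays. It fell by 1.55 ± 0.39, 2.92-fold (adjusted p = 0.00583). At night its arrays overlapped, at 28.4, 22.5 and 22.9 after the pulse, against 16.1, 53.4 and 35.2 in the controls, where the controls alone spanned both ends of the range. The night value was -0.34 ± 0.39 (adjusted p = 0.674), and 0.03 without night control replicate 2.

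CYP71B28 (AT1G13090) had smaller changes. Its signals were 266, 196 and 177 after the day pulse, against 86.1, 129 and 133 in the day controls. As deposited the day pulse arrays had 138.5, 210.8 and 197.5, so replicate 1 went from lowest to highest with normalization. It rose by 0.87 ± 0.22 (1.83-fold, adjusted p = 0.00636), and by 0.55 ± 0.17 with arrays weighted by their quality. At night it had 156, 126 and 119 after the pulse, against 73.1, 91.4 and 90.3 in the controls, with all pulsed arrays above. The night value of 0.64 ± 0.22 was not called (adjusted p = 0.0807). It passed with array weights (0.0187) and with the night groups alone (0.03). It also passed without both arrays of high GAPDH ratio (0.039), without day pulse replicate 1 (0.0429) and without day control replicate 1 (0.0445). Those last fits left out day arrays only, which kept the night value at 0.64 and changed its SE to 0.19 or 0.20.

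CYP71B6 (AT2G24180) is the member with the best known reaction among those tested, the turnover of indole-3-acetonitrile to indole carbonyl compounds in the branch that also leads to camalexin. It had 834, 564 and 555 after the day pulse, against 380, 427 and 476 in the day controls. The highest pulsed signal was on day pulse replicate 1, an array with a high GAPDH ratio and the lowest median intensity, 23.5. As deposited that array had the lowest of the day pulse signals, at 463 against 572.9 and 578.9. It rose by 0.58 ± 0.20 (1.5-fold, adjusted p = 0.031). That call was lost without day pulse replicate 1 (0.39, adjusted p = 0.105), without day control replicate 1 (0.0791) or 2 (0.0655), without both arrays of high ratio (0.39, adjusted p = 0.15), without normalization (0.133), with array weights (0.32, adjusted p = 0.0926), with the day groups alone (0.0792) and with median centring (0.17, adjusted p = 0.539). At night it had 421, 320 and 401 after the pulse, against 270, 206 and 273 in the controls, again without overlap. The night value was 0.61 ± 0.20 (adjusted p = 0.0654). It was called under 6 of 23 alternatives, among them without day pulse replicate 1 (0.0236) and with the replicate number as a block (0.0472). Both of these fits kept the night value at 0.61 and changed its SE, to 0.17 and 0.18.

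CYP78A9 (AT3G61880) belongs to the CYP78A subfamily, whose members promote organ and seed growth, and is known for enlarged fruits when overexpressed. It had 43.2, 27.8 and 22.9 after the night pulse, against 1.2, 2.70 and 23.0 in the night controls. One control array thus reached the pulsed arrays, and the other 2 were close to background. The fit called a rise of 2.16 ± 0.63 (adjusted p = 0.0391), but the means differ by at least 1.44-fold only, and with dim signals raised to 21.75 the value was 0.42 (adjusted p = 0.434). The call was also lost under 11 of its other 19 alternatives. Among them were fits without any 1 of the 3 night pulse arrays (adjusted p = 0.0722 to 0.14) or night control replicate 1 (0.158) or 2 (0.156). It was lost without day pulse replicate 3 too (0.0528), which kept the night value of CYP78A9 at 2.16 and changed its SE to 0.66. In the subjective day it had 76.2, 39.2 and 55.0 after the pulse, against 20.5, 41.3 and 16.8 in the controls, with overlap at 1 array. The day value was 1.11 ± 0.63 without a call (adjusted p = 0.176), and 0.97 with a call when dim signals were raised (adjusted p = 0.0163).

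CYP71B29, CYP71B34 and CYP71B5 were called for neither pulse. CYP71B29 (AT1G13100) had 38.4, 27.8 and 30.5 after the night pulse, against 69.8, 48.7 and 51.8 in the night controls, all pulsed arrays below, with a value of -0.77 ± 0.32 (adjusted p = 0.152, and 0.0396 with the night groups alone). In the subjective day its value was 0.15 ± 0.32, with group means of 37.1 ± 10.8 after the pulse and 34.0 ± 13.2 in the controls. CYP71B34 (AT3G26300) averaged 119 ± 45.2 after the night pulse and 109 ± 15.7 in the night controls, and 147 ± 1.94 after the day pulse and 157 ± 31.1 in the day controls. As deposited its day pulse arrays had 78.7, 159.6 and 164.1, so they came close together only with normalization. Its changes were 0.07 at night (95% interval -0.45 to 0.59) and -0.08 in the subjective day (-0.60 to 0.44), and they changed sign under some alternatives. CYP71B5 (AT3G53280) averaged 108 ± 10.7 after the day pulse and 75.6 ± 37.1 in the day controls. Its day value was 0.61 ± 0.28 (adjusted p = 0.101), and 0.97 with a call without day control replicate 1 (adjusted p = 0.00455), the control array at 117 beside 44.8 and 65.2. It was also called with array weights, which leave out no array (0.64, adjusted p = 0.0138), and was 0.22 without both arrays of high GAPDH ratio (adjusted p = 0.554). At night CYP71B5 averaged 102 ± 21.5 after the pulse and 91.5 ± 1.10 in the controls, a value of 0.13 ± 0.28.

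**Figure D2:**
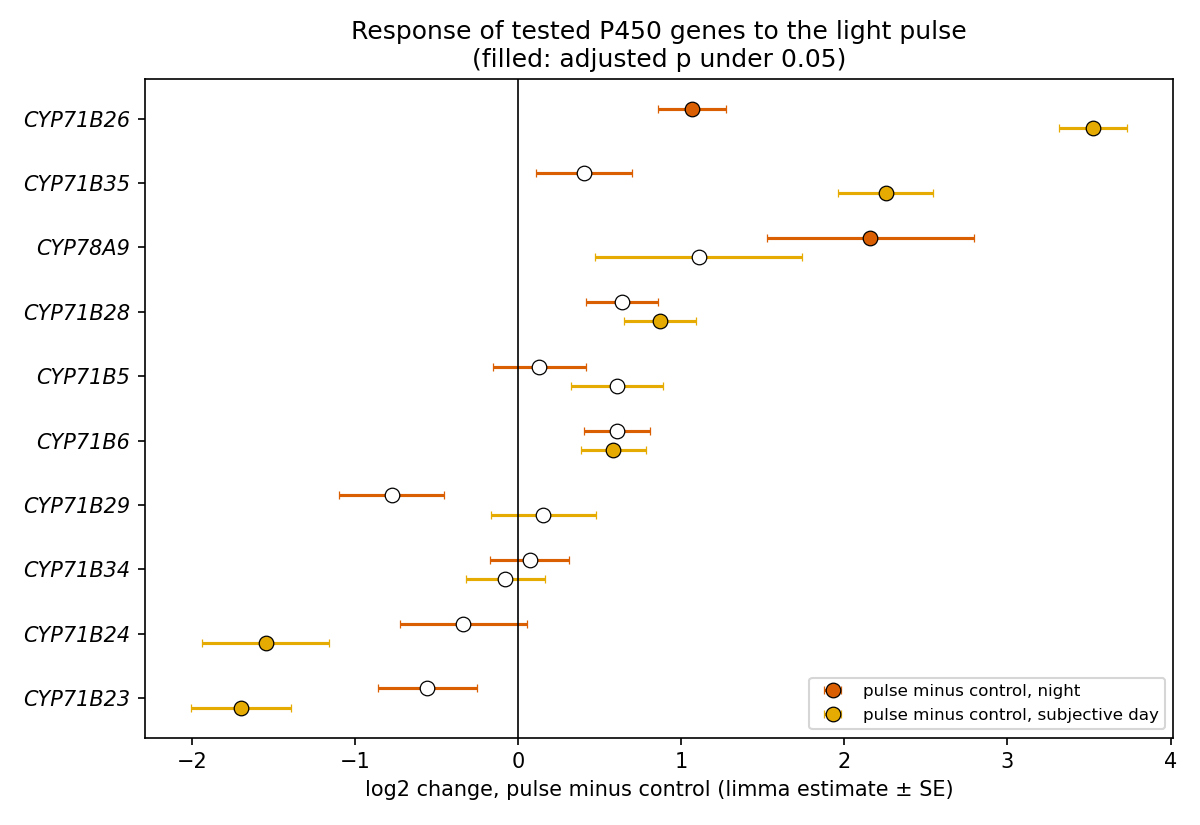
Change of the 10 tested P450 genes after the light pulse, as limma log2 estimates with bars of 1 SE, at night and in the subjective day. Filled points passed an adjusted p under 0.05. CYP71B26 is farthest to the right in the subjective day at 3.52, and CYP71B23 and CYP71B24 are farthest to the left at -1.70 and -1.55.

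The design also allows the response at night to be set against that in the subjective day. The difference between the effects, night minus day, was called for 2 of 10 members, both lower, where 12.7% of all tested probe sets were called, 5.20% higher and 7.47% lower. Of these calls 41.03% were higher, and 74.67% with median centring, where the median over all probe sets was 0.31. There 9 members were tested, with 1 called higher and 2 lower. For CYP71B26 it was -2.46 ± 0.29 (adjusted p = 0.000184), and -2.51 ± 0.29 with dim signals raised. For CYP71B35 it was -1.85 ± 0.41 (adjusted p = 0.0112) and -1.62 ± 0.31 with dim signals raised, but without normalization it was -1.99 ± 0.53 and not called (adjusted p = 0.0602). Both genes thus rose more in the subjective day. For CYP71B6 the difference was 0.02, with a 95% interval of -0.59 to 0.63, and for CYP71B28 it was -0.23 (-0.91 to 0.45). Differences within those intervals were not excluded with 3 arrays a group. For CYP71B23 it came to 1.14 ± 0.43 and missed the threshold (adjusted p = 0.102). It was called with median centring (1.5, adjusted p = 0.0227), offset 16 (1.17, adjusted p = 0.0336), array weights (1.22, adjusted p = 0.0219), dim signals raised (1.43, adjusted p = 0.0215) and without day pulse replicate 2 (1.51, adjusted p = 0.0207). For CYP71B24 it was 1.21 ± 0.55 (adjusted p = 0.171). CYP71B29 had -0.93 ± 0.46 (adjusted p = 0.207), and -1.42 with a call under array weights (adjusted p = 0.0166). CYP71B5 (-0.48 ± 0.40), CYP71B34 (0.15 ± 0.34) and CYP78A9 (1.05 ± 0.90) were not called either.

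The unpulsed seedlings were compared as night minus day control, which shares its control arrays with both pulse comparisons. Limma called 6 of 10 members, 1 higher and 5 lower in the night controls, where 48.4% of all tested probe sets were called, 25.7% higher and 22.6% lower. Of these calls 53.18% were higher, 81.13% without normalization and 39.18% with median centring, where the median over all probe sets was -0.19. In either setting 9 members were tested. Without normalization 2 were higher and 2 lower, and with median centring 1 was higher and 6 lower. Night controls lay wholly above day controls for 2 members and wholly below for 5, against 31.0% and 29.4% of all tested probe sets (60.4% in all). CYP71B23 had the widest gap, at 29.5, 25.4 and 26.1 in night controls, against 211, 272 and 258 in day controls, a change of -3.09 ± 0.30 (8.54-fold lower at night, adjusted p = 3.49e-06). CYP71B26 was 4.26-fold lower in night controls, by -2.09 ± 0.21 (adjusted p = 3.88e-06), and CYP71B24 was 2.78-fold lower, by -1.47 ± 0.39 (adjusted p = 0.00671). With 16 added instead of 2 these values were -1.62 (adjusted p = 6.5e-06) and -1.15 (adjusted p = 0.00401). CYP71B6 was lower by -0.78 ± 0.20 (adjusted p = 0.00569). In unnormalized data CYP71B24 missed the threshold at -0.89 (adjusted p = 0.136), as did CYP71B6 at -0.44 (adjusted p = 0.153). The median over all tested probe sets was 0.54 there. With median centring CYP71B6 had -1.17. CYP71B35 went the other way, at 53.5, 46.8 and 41.4 in night controls, against 35.6, 12.9 and 22.5 in day controls, a change of 1.04 ± 0.29 (2.05-fold, adjusted p = 0.01), and 1.67 without normalization. CYP78A9 was called lower at night by -1.87 ± 0.63 (adjusted p = 0.0262), but the means differ by at least 1.2-fold only and the arrays overlapped. Its call was lost under 8 of 20 alternatives, among them with dim signals raised (-0.26, adjusted p = 0.484), without night control replicate 1 (0.122) or 2 (0.0951) and without day control replicate 2 (0.101). RCA was also higher in the night controls, by 1.02 ± 0.19 (adjusted p = 0.000643), and the part of a shift in leaf transcripts in these differences was not tested. CYP71B29 (0.76 ± 0.32), CYP71B5 (0.38 ± 0.28), CYP71B28 (-0.42 ± 0.22) and CYP71B34 (-0.51 ± 0.24) were not called. Each of these 4 was called under at least 2 alternatives in the direction given, for instance CYP71B29 without normalization (adjusted p = 0.00971), CYP71B28 with array weights (0.00912), CYP71B34 with median centring (-0.77, adjusted p = 0.0112) and CYP71B5 without day control replicate 1 (0.74, adjusted p = 0.0184).

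Setting the pulsed and unpulsed groups side by side shows where 3 other genes with large day changes lay after light. CYP71B23 averaged 79.8 ± 39.6 in day pulse and 247 ± 32.1 in day control seedlings, and 18.1 ± 5.08 in night pulse and 27.0 ± 2.21 in night control seedlings, so the day-pulsed arrays still lay above all night arrays. CYP71B24 averaged 29.8 ± 3.03 in day pulse and 95.9 ± 35.3 in day control seedlings, against 24.6 ± 3.33 in night pulse and 34.9 ± 18.7 in night control seedlings, so its day-pulsed arrays fell within the span of the night controls. CYP71B35 averaged 112 ± 5.52 in day pulse and 23.6 ± 11.4 in day control seedlings, against 63.4 ± 9.89 in night pulse and 47.3 ± 6.05 in night control seedlings, so the lowest and the highest of its 4 group means were both from the subjective day.

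Of the 22 members, 11 lie in a single stretch of the genome, from CYP71B16 to CYP71B37 in the gene order of TAIR10.1. The stretch holds 24 genes, 18 of them CYP71B genes, among which 2 are classed as pseudogenes, and 6 other genes. Its measured genes responded in different directions. CYP71B23 and CYP71B24, which flank CYP71B3, fell after the day pulse. CYP71B26 rose, CYP71B34, separated from it by the pseudogene CYP71B33, was not called, and CYP71B35, the direct neighbour of CYP71B34, rose. Tandem copies resemble each other in sequence, and although all 22 probe sets carry the suffix that Affymetrix gave to sets designed for 1 transcript, cross-hybridization between copies was not tested. A second run, CYP71B27, CYP71B2, CYP71B28, CYP71B29 and CYP71B7, holds 3 members, of which CYP71B28 and its direct neighbour CYP71B29 had night values of opposite sign, 0.64 and -0.77, neither called.

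**Figure D3:**
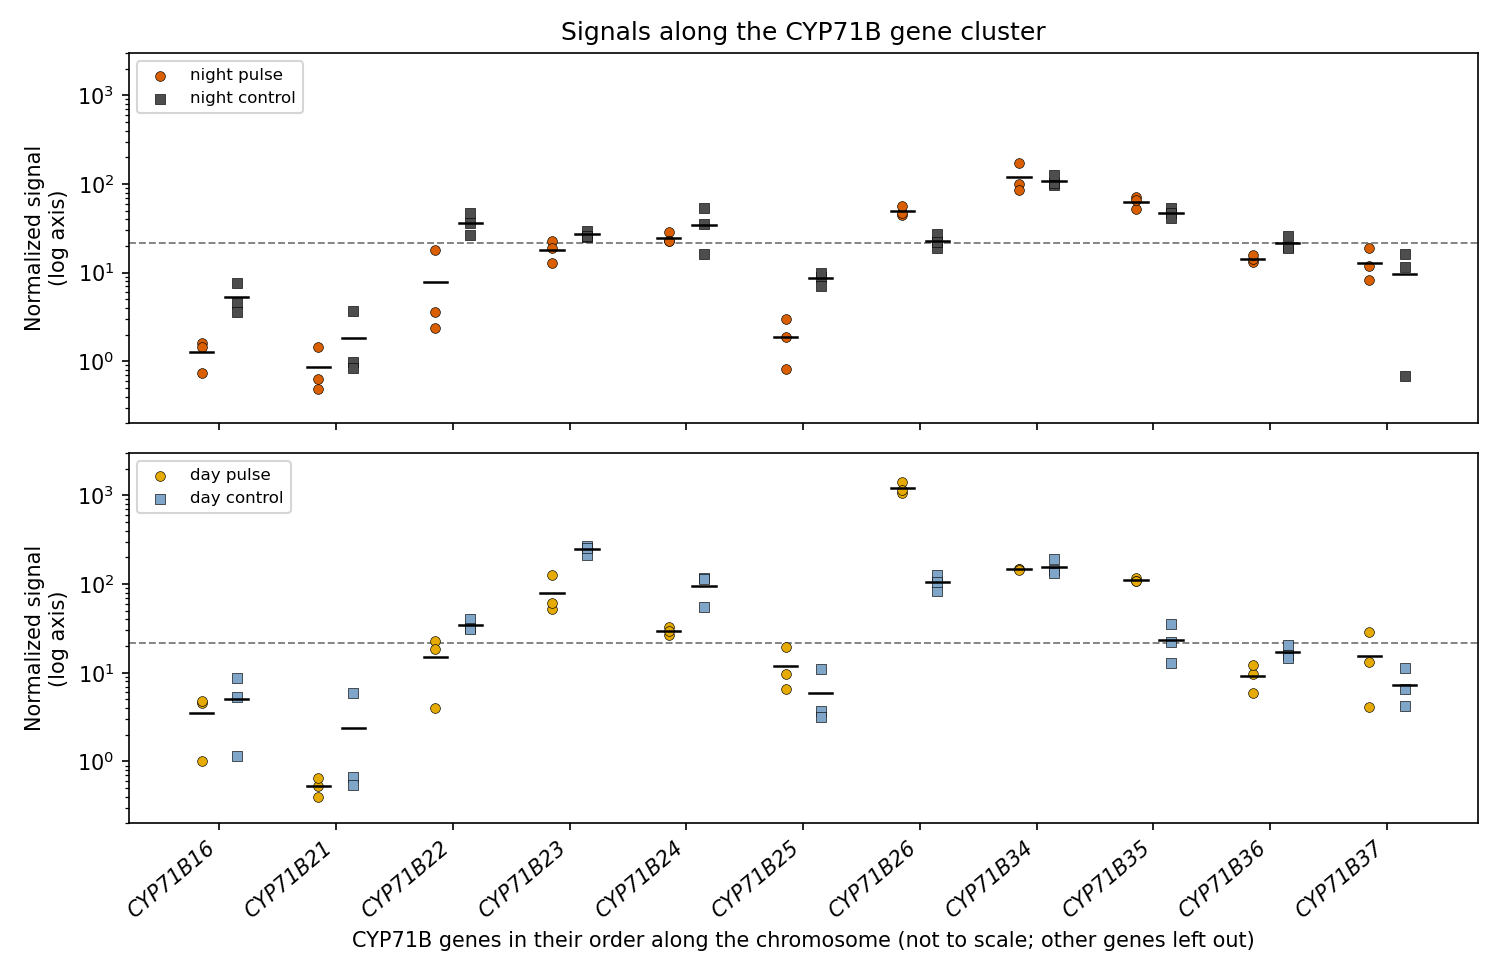
Normalized signal (log axis, arbitrary units) of the 11 measured CYP71B genes of the cluster in their order along the chromosome, with night arrays above and subjective-day arrays below. Circles are pulsed and squares control arrays, short bars are means, and the dashed line is 21.75. In the lower panel CYP71B26 and CYP71B35 are higher after the pulse, and CYP71B23 and CYP71B24 are lower.

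The pattern of CYP71B26 over the 12 arrays was most like those of CYP71B6 (Pearson r = 0.90), CYP71B28 (0.85) and CYP78A9 (0.68) among the other 21 members, 12 of which were too dim to be tested. These values describe log2 signals that share arrays and groups. The neighbour CYP71B35 had r = 0.51 and CYP71B34 had 0.47. The group means of CYP71B6 had the order seen for CYP71B26, with 651 ± 159 in day pulse, 428 ± 47.6 in day control, 381 ± 53.4 in night pulse and 250 ± 37.9 in night control. Those of CYP71B28 were 213 ± 46.9 in day pulse, 134 ± 19.7 in night pulse, 116 ± 26.1 in day control and 84.9 ± 10.3 in night control. In both genes the arrays of day control and night pulse, the middle groups, overlapped, unlike those of CYP71B26.

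The 12 members under the filter had low mean log2 signals over all arrays. In 10 of them all 4 group means were below 21.75, so neither the pulse nor the time can be judged for them. CYP71B22 (AT3G26200) was the clearest exception, at 2.35, 17.9 and 3.61 after the night pulse, against 46.6, 36.6 and 26.4 in the night controls, and at 4.02, 22.6 and 18.7 after the day pulse, against 39.99, 31.8 and 31.2 in the day controls. All pulsed arrays lay below all controls of their time, by at least 1.68-fold at night and at least 1.58-fold in the subjective day by the means. When the filter was dropped, limma called the fall at night (-2.26 ± 0.61, adjusted p = 0.0369) but not the day value (-1.31 ± 0.61, adjusted p = 0.139). It was the only one of the 12 called for any of the 4 contrasts in that fit. CYP71B22 is the direct neighbour of CYP71B23.

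CYP84A4 (AT5G04330), required for the phenylpropanoid-derived arabidopyrones, averaged 9.40 ± 5.47 after the night pulse and 17.8 ± 1.72 in the night controls, and 25.9 ± 3.53 after the day pulse and 22.2 ± 13.4 in the day controls. CYP79A2 (AT5G05260), which converts phenylalanine to its oxime on the way to benzylglucosinolate, was between 0.549 and 1.79 on all arrays. CYP71B31 (AT3G53300), a linalool-oxidizing enzyme of flowers, stayed at or under 9.89 on all arrays. CYP51G2, the pseudogene related to the sterol demethylase CYP51G1, reached 23.0 on day pulse replicate 1 and 14.1 on day pulse replicate 3, and 1.46 on day pulse replicate 2. CYP71B27, the other pseudogene, likewise reached 23.0 on day pulse replicate 1 alone. CYP71B36 averaged 14.4 ± 1.22 after the night pulse and 21.6 ± 3.96 in the night controls, and 9.30 ± 3.20 after the day pulse and 17.1 ± 2.96 in the day controls, with pulsed arrays below controls at both times. CYP71B16, CYP71B21, CYP71B25, CYP71B37 and CYP71B38 had group means between 0.527 and 15.4.

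**Figure D4:**
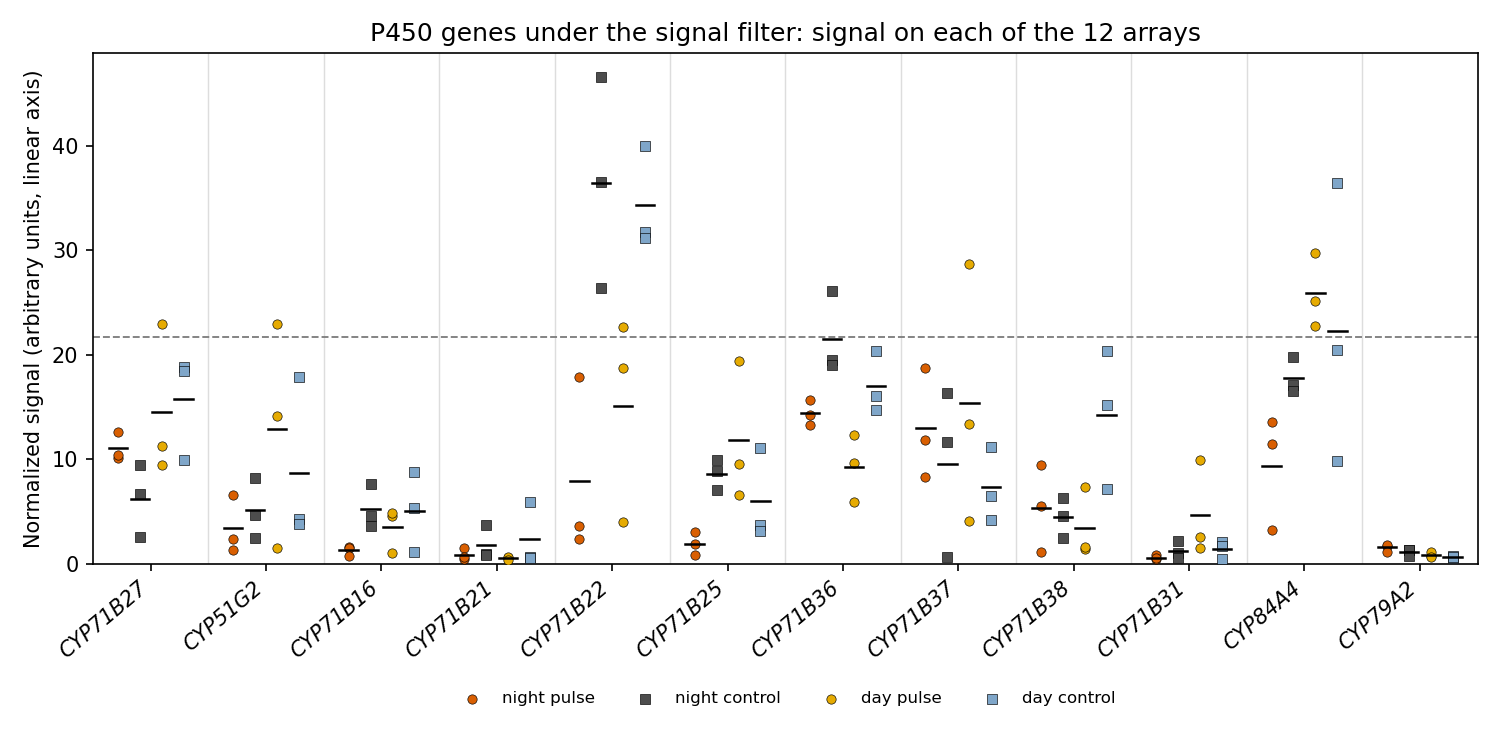
Normalized signal (linear axis, arbitrary units) of the 12 P450 genes under the filter on each of the 12 arrays, with circles for pulsed and squares for control arrays, bars for group means and a dashed line at 21.75. CYP71B22 is above the line on all control arrays, and below it on 5 of 6 pulsed arrays.

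Few other genes of the P450 pathways had a named probe set. Of 26 P450 genes listed under other symbols and 2 P450 reductases (ATR1 and ATR2) none did. Of 13 listed glucosinolate genes 2 did, and both rose after both pulses. UGT74B1, which adds the glucose of the glucosinolate core, rose by 1.40 ± 0.36 at night (adjusted p = 0.0195) and by 1.86 ± 0.36 in the subjective day (adjusted p = 0.000944). BCAT4, the transaminase that starts methionine chain elongation, rose by 1.85 ± 0.30 at night (adjusted p = 0.000892) while its day control mean of 17.5 lay below 21.75. In the subjective day it was at least 2.03-fold higher after the pulse (44.3 ± 18.2, adjusted p = 0.00584). Of 11 phenylpropanoid genes 1 was measured, HCT, a transferase of the lignin pathway. It averaged 691 ± 111 after the night pulse and 651 ± 24.4 in the night controls (0.07 ± 0.21, adjusted p = 0.893). After the day pulse it averaged 852 ± 29.1, against 199 ± 73.7 in the day controls, a rise of 2.15 ± 0.21 (adjusted p = 3.85e-06), and the difference between pulses was -2.07 ± 0.30 (adjusted p = 0.000738). Of 5 carotenoid genes 1 was measured, the lycopene cyclase LCYB, with 0.02 ± 0.14 at night (adjusted p = 0.962) and a rise of 0.39 ± 0.14 in the subjective day (adjusted p = 0.0337).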

How the data were processed

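Biotinylated cRNA from 5 ug of RNA was hybridized to Affymetrix arrays, per the labels' protocols. Values were deposited as linear intensities, 1 for each probe set on each array. The submitters' processing notes name MAS5 without a role, and neither its version nor its settings were found in the labels or file. Of 22810 probe sets, 64 controls were left out. The annotation table named 1 gene for 13513, and 13436 of these, with all 22 members, matched TAIR10.1 by gene identifier. No genome positions are given because the array annotation names no build.

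Intensities were raised by 2, taken to log2 and quantile normalized over the 12 arrays. Probe sets above the 40th percentile of the mean (13647) were fitted in 4 groups with limma 3.58.1 in R 4.3.3 (moderated with an intensity trend; residual degrees of freedom 8). Tests were two-sided and adjusted over all probe sets. A simulation of the day comparison changed 200 of 13647 probe sets. It recovered 34% of changes of 1 log2 unit and 82% of changes of 2. Far more probe sets were called in these data, which alters the adjusted threshold, so those shares do not give the power of these fits. A gene not called is not shown to be unchanged. Where 1 group mean was under 21.75, the fold was computed against 21.75 in its place and is written as "at least". The labels do not say that arrays of a group came from separate plants, so p-values measure the spread between arrays, and precision is set by having 3 arrays a group. The members, lists, scaling and alternatives were chosen with earlier results of these data known. Named were, for each pulse, up to 12 called members in each direction, for the other contrasts up to 8, the 5 with the highest mean signal and measured members of the role lists, and in the end every member is accounted for. The member lists of brassinosteroid, gibberellin, abscisic acid, jasmonate, cytokinin and strigolactone, cutin, sterol, carotenoid and coumarin P450 genes, and the lists of other abscisic acid, jasmonate, gibberellin and brassinosteroid, and cutin genes, had no named probe set. Protein and promoter sequences were not used here.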

Additional observations from a re-analysis of the deposited data

Results flagged for a closer look

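The effect of the pulse differed between night and subjective day for CYP71B26 and CYP71B35, by the interaction term of the limma fit. For CYP71B26 the difference (night minus day, log2) was -2.46 (adjusted p = 0.000184), with signals of 45.0 to 57.0 in night pulse and 19.2 to 27.1 in night control arrays, and 1067 to 1421 in day pulse and 82.8 to 126 in day control arrays. For CYP71B35 it was -1.85 (adjusted p = 0.0112), with signals of 52.5 to 71.8 in night pulse and 41.4 to 53.5 in night control arrays, and 108 to 118 in day pulse and 12.9 to 35.6 in day control arrays.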

How the results depend on the processing

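CYP71B26 was called in all 4 comparisons under all alternatives run (night 0.76 to 1.19, subjective day 3.21 to 3.66, difference -2.60 to -2.07, controls -2.30 to -1.57), and the day calls of CYP71B23, CYP71B24, CYP71B28 and CYP71B35 were kept wherever those genes were tested. The other counts depended on settings, and beyond the construction of each setting the cause was not tested. Without normalization and with median centring 9 members were tested, as CYP78A9 fell under the filter there. Members higher after the night pulse numbered 2, but 1 without normalization, with offset 16, without the filter, with a filter at the 60th percentile and with dim signals raised, 4 without both arrays of high GAPDH ratio, and 1 to 4 with 1 array left out (4 without day pulse replicate 1, 3 without day control replicate 1, and 1 without day pulse replicate 3, any night pulse array or night control replicate 1 or 2). Members lower after the night pulse numbered 0, and 1 without the filter (CYP71B22) or with only the groups compared (CYP71B29). After the day pulse the 4 higher members became 3 without normalization, with median centring, with the 60th percentile filter and with only the groups compared. They were 3 to 4 with 1 array left out. The 2 lower members became 0 with the 60th percentile filter, which left 5 members tested. In the difference, members higher numbered 0, and 1 with median centring, offset 16, array weights and dim signals raised, and 0 to 1 with 1 array left out. Members lower in the difference numbered 2, and 1 without normalization and with the 60th percentile filter. Against day controls, members higher at night numbered 1, but 2 without normalization and with dim signals raised, 3 with array weights, 0 with the 60th percentile filter, and 1 to 3 with 1 array left out (3 without day control replicate 1). Members lower there numbered 5, and 2 without normalization or with the 60th percentile filter. Whether the replicate numbers pair the arrays was not settled. Of 18 same-number pairs, 8 correlated above 0.1, with a highest r of 0.4462 (night pulse and day pulse replicate 1) and a lowest of -0.1082. With the replicate block, 2 members were higher after the night pulse, CYP71B26 and CYP71B6, as CYP78A9 was lost (adjusted p = 0.0513), and 4 higher and 2 lower after the day pulse.

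Values that changed sign were all uncalled. They were CYP71B28 in the controls without normalization (0.1143) and in the difference with median centring (0.0199) or array weights (0.0326), CYP71B34 with array weights at night (-0.0575), in the subjective day (1e-05) and in the difference (-0.0575), and in the subjective day without both arrays of high GAPDH ratio (0.0681), and CYP78A9 in the difference with dim signals raised (-0.5533). Leaving out 1 array moved CYP71B24 at night between -0.7799 and 0.0287, CYP71B34 at night between -0.2168 and 0.2693, in the subjective day between -0.1773 and 0.0769 and in the difference between -0.1395 and 0.3466, CYP71B5 at night between -0.0135 and 0.2906, CYP71B29 in the subjective day between -0.1617 and 0.4048, and CYP71B6 in the difference between -0.1086 and 0.2153.

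Over all tested probe sets, calls after the night pulse numbered 1760, and 669 without normalization. In the difference they numbered 1728, and 439 without normalization and 2728 with median centring. With array weights they numbered 1404 higher and 1690 lower at night, and 2023 higher and 2346 lower in the difference, and with the night groups alone 1253 were higher at night, against 829. Without normalization the lower calls numbered 1570 after the day pulse, against 2969, and 1062 in the controls, against 3091. Leaving out night control replicate 2 gave 538 lower at night, against 931. In the difference, with 709 higher and 1019 lower as reported, leaving out night control replicate 2 or 3 or day control replicate 3 gave 467, 420 or 455 higher, and leaving out day control replicate 1 gave 1077 higher and 1583 lower.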
